A study of Mus musculus with 8 samples.

Results

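Gene desert peaks were the open chromatin regions that lay 250 kb or more from the body of any protein-coding gene. They were taken from 5 ATAC-seq peak lists on chromosomes 1 to 19 and X of the mouse genome build mm10, with the distance measured to 21631 protein-coding genes that RefSeq annotates on GRCm38.p6, which is that build. In all, 17209 of 294741 peaks met this rule. ATAC-seq marks open DNA by the cuts and tags of a transposase. All libraries came from liver cells of mice of an Rb family triple knockout model of hepatocellular carcinoma, freed enzymatically from liver or visible lesions and sorted as YFP-positive, which marks cells whose floxed alleles were recombined by Cre.

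The labels name EpCAM-high, Thy1-positive and EpCAM-negative fractions, with CK19 and Sox9 sets of the EpCAM-high and Thy1-positive fractions, in 8 samples of 5 groups. No treatment was given, per the labels. The driver of Cre, the ages of the mice and the meaning of CK19 and Sox9 in the names are not stated in those labels. There were 5 lists, named Tumor Sox9, Prog-like CK19, Prog-like Sox9, EpCAM-high CK19 and EpCAM-high Sox9, and each was a single list per condition. By name, both EpCAM-high lists match a sample group (2 samples for CK19, 1 for Sox9), whereas the other 3 lists could be tied to no sample group. No replicate error exists for any value, so no p-value is given and each difference below compares lists, not conditions. Intervals are exact Clopper-Pearson 95% intervals of shares and cover counting error only, and neighbouring peaks are not independent. The read depth behind each list is unknown. The label of the set describes a position and not a cell type, so there were no markers to check it against.

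Gene deserts are long stretches of the genome without protein-coding genes. In mammals, deserts beside genes for developmental transcription factors are known to hold enhancers that act over long distances, and Sox9 and Myc are well-studied examples. Other deserts hold few known regulatory elements, and long noncoding RNA genes (lncRNA genes) are common in them.

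In the RefSeq annotation, 655 gaps between neighbouring protein-coding genes were longer than 500 kb, with a median length of 881 kb. Their desert territory, the part at least 250 kb from both genes, came to 444 Mb, or 17.1% of the span between the first and last genes. Peaks were found there in 556 of the 655 gaps, in 258 gaps in all 5 lists, and 99 gaps held none.

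No genome sequence was used here, so the bases of the peaks themselves are not printed. Of 685 desert lncRNA genes with a promoter window in RefSeq's GRCm38.p6 table (250 bases before to 50 after the start), 78 had a peak of at least 1 list over that window. The 5 windows below stand for the patterns of openness that the gaps show as well, and were chosen after their values were seen. Each is written 5′ to 3′ on the strand of its gene, and capitals mark the bases within 10 of the highest point of the strongest peak over it, as far as the window reaches.
Gm33867, open in all 5 lists, chr3:143743028-143743327, plus strand: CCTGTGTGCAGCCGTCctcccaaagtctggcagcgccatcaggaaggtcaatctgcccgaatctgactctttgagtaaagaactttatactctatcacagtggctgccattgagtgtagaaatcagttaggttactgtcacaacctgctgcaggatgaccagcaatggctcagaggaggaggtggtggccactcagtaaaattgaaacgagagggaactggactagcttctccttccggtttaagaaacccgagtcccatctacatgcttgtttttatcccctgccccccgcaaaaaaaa
Gm5086, open in both Prog-like lists only, chr13:97559750-97560049, plus strand: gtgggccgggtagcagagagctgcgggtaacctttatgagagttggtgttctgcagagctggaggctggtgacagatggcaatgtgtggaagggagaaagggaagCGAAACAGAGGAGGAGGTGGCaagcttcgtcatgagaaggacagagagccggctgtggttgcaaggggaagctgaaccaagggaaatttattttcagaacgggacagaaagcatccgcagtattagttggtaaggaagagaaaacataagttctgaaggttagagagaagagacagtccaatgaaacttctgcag
Gm41259, open in both EpCAM-high lists only, chr15:6044655-6044954, minus strand: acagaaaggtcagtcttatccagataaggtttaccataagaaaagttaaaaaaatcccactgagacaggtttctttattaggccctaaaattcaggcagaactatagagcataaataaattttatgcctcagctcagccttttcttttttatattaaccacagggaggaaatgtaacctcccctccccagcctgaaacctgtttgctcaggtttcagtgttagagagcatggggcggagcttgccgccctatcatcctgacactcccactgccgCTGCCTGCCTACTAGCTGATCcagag
AI197445, open in both EpCAM-high lists only, chr13:107469572-107469871, plus strand: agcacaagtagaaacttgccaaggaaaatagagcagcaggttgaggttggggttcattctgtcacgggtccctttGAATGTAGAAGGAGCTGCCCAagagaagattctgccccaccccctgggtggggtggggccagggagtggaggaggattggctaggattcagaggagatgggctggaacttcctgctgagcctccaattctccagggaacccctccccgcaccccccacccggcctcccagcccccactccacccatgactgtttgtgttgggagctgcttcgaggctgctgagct
Gm5524, open in Tumor Sox9 and both EpCAM-high lists, chr1:27883796-27884095, plus strand: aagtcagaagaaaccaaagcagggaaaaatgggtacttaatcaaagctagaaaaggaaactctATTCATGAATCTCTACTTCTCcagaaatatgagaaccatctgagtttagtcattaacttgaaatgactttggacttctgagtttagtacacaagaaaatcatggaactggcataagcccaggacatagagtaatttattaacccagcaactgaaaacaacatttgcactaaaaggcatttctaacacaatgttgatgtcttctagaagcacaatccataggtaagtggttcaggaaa

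The strength of each peak is given by the authors' −log10 q, where q is the peak caller's false discovery rate, and the values describe peaks within their own list. Over Gm33867 it was 27.7 in Tumor Sox9, 19.9 in Prog-like CK19, 10.4 in the Prog-like Sox9 list, 77.4 in EpCAM-high CK19 and 58.2 in the EpCAM-high Sox9 list. Over Gm41259 it was 106.0 in EpCAM-high CK19 and 40.6 in the EpCAM-high Sox9 list, and no peak of the other 3 lists touched the window. Over Gm5524 it was 74.9 in Tumor Sox9, 13.8 in EpCAM-high CK19 and 26.9 in the EpCAM-high Sox9 list.

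Openness at desert lncRNA promoters was rare in every list. The share of the 685 genes with a peak over the window was 2.63% in Tumor Sox9 (18 genes), 3.94% in Prog-like CK19 (27), 3.36% in the Prog-like Sox9 list (23), 6.42% in EpCAM-high CK19 (44) and 5.40% in the EpCAM-high Sox9 list (37). At equal list length the shares were 2.63% in Tumor Sox9, 1.61% in Prog-like CK19, 1.02% in the Prog-like Sox9 list, 5.26% in EpCAM-high CK19 and 4.23% in the EpCAM-high Sox9 list. Tumor Sox9, which is not cut and keeps its weak peaks, then lay above both Prog-like lists. As deposited, for 5484 lncRNA genes between protein-coding genes but nearer than 250 kb to one, the share ran from 10.3% in Tumor Sox9 to 13.2% in Prog-like CK19, and for 17274 protein-coding genes from 51.1% in Tumor Sox9 to 57.1% in EpCAM-high CK19. Of the 78 open desert promoters, 11 were open in both Prog-like lists only, 11 in both EpCAM-high lists only, 6 in Tumor Sox9 and both EpCAM-high lists, and 3 in all 5. A pair with opposite patterns shared the gap between Ptger4, a prostaglandin receptor gene, and Dab2, an endocytic adaptor gene: 5430437J10Rik was open in both Prog-like lists only, with −log10 q of 54.2 in the Prog-like Sox9 list, and Gm41259 in both EpCAM-high lists only. The strongest peak over 5430437J10Rik, in Prog-like CK19, had its highest point outside the window, before its start.

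The letters TGANTCA (the AP-1 core, both strands searched, N any base) were in 10.3% of the 78 open and 10.7% of the 607 other desert lncRNA windows, against 7.98% of all 26794 promoter windows in the table. The letters GGGCGGG, known as the box bound by Sp1, were in 1.28% of the open and 1.81% of the other desert windows, against 26.0% of all windows. The letters GAGGAAGT (a PU.1 core) were in 5.13% of the open and 2.80% of the other desert windows, against 3.30% of all windows. All motifs were searched on both strands. None of the 5 printed windows held any of these letters, and the motifs were chosen after the lists had been examined. Open desert windows had a median GC content of 46.2% and the other desert windows 43.3%, against 52.7% for all windows. At promoters in deserts, these Sp1 letters were thus far less frequent than in all windows, in open and closed windows alike. The AP-1 letters differed little between open and closed windows. The open values rest on 8 windows for AP-1, 4 for PU.1 and 1 for Sp1, so small differences between open and closed windows cannot be read.

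Few desert peaks lay at small RNA genes. Of 43 microRNA hairpins in deserts, 2 were touched by a peak, Mir344d-2 in both EpCAM-high lists and Mir344-2 in Prog-like CK19, both in the gap between Gm51483 and Ndn. Peaks within lncRNA gene bodies made up 7.77% of desert peaks in Tumor Sox9, 15.3% in Prog-like CK19, 14.2% in the Prog-like Sox9 list, 11.6% in EpCAM-high CK19 and 17.1% in the EpCAM-high Sox9 list. Peaks within pseudogenes stayed under 1% in every list, at 0.740% to 0.948%. No share is given here for hairpins outside deserts, or for the part of desert territory that lncRNA genes and pseudogenes cover. These values therefore show neither enrichment nor depletion at such genes.

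The number of desert peaks differed more between lists than the lists differed in length. Tumor Sox9 had 3796 desert peaks of 39538, Prog-like CK19 2432 of 71262, Prog-like Sox9 2678 of 67733, EpCAM-high CK19 5467 of 56832 and EpCAM-high Sox9 2836 of 59376. As shares of the list these were 9.60% (9.31 to 9.90) in Tumor Sox9, 3.41% (3.28 to 3.55) in Prog-like CK19, 3.95% (3.81 to 4.10) in the Prog-like Sox9 list, 9.62% (9.38 to 9.86) in EpCAM-high CK19 and 4.78% (4.61 to 4.95) in the EpCAM-high Sox9 list. Tumor Sox9 and EpCAM-high CK19 thus stood together, above the other 3 lists. Per Mb, deserts held 8.54 peaks in Tumor Sox9, 5.43 in Prog-like CK19, 5.97 in the Prog-like Sox9 list, 12.3 in EpCAM-high CK19 and 6.36 in the EpCAM-high Sox9 list, against 16.6, 31.9, 30.2, 23.8 and 26.2 per Mb elsewhere in the same lists.

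Most of that excess lay in weak peaks. Desert peaks had a median −log10 q of 2.94 in Tumor Sox9 and 3.61 in EpCAM-high CK19, against 9.76 and 15.7 for the rest of each list. The desert medians were 16.4 in Prog-like CK19, 10.4 in the Prog-like Sox9 list and 7.79 in the EpCAM-high Sox9 list, against 31.6, 26.2 and 13 for the rest. The weakest quintile of the list held 63.9% of the desert peaks of Tumor Sox9 and 60.8% of those of EpCAM-high CK19, but 39.9% in Prog-like CK19, 47.0% in the Prog-like Sox9 list and 37.1% in the EpCAM-high Sox9 list. In the strongest quintile, the desert share was 2.34% in Tumor Sox9, 2.32% in Prog-like CK19, 2.56% in the Prog-like Sox9 list, 3.80% in EpCAM-high CK19 and 2.97% in the EpCAM-high Sox9 list.

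Among peaks that reached a −log10 q of 5, the shares were 2.89% (2.70 to 3.09) in Tumor Sox9, 2.69% in Prog-like CK19, 2.74% in the Prog-like Sox9 list, 4.37% (4.18 to 4.56) in EpCAM-high CK19 and 3.76% in the EpCAM-high Sox9 list. Tumor Sox9 then lay beside the Prog-like lists, and both EpCAM-high lists lay above them. With each list cut to the 39644 strongest peaks, the length of the shortest, the shares were 9.60% in Tumor Sox9, which is not cut, 2.46% in Prog-like CK19, 2.53% in the Prog-like Sox9 list, 3.90% in EpCAM-high CK19 and 3.57% in the EpCAM-high Sox9 list. The order of the Tumor Sox9 list against the other 4 therefore depends on where the threshold lies, and the part of read depth or background in its weak desert peaks was not tested.

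**Figure D1:**
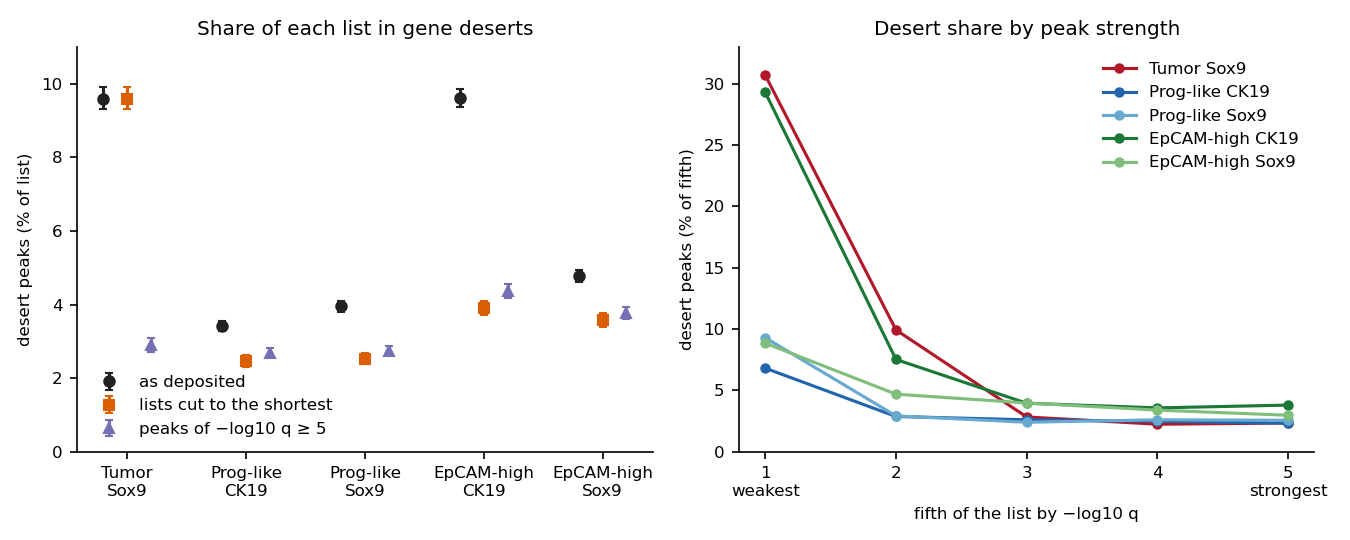
Left, desert peaks as a percentage of each of the 5 lists as deposited, cut to the length of the shortest, and at −log10 q of 5 or more, with exact 95% intervals as bars; right, the desert percentage within each quintile of the list by −log10 q. Tumor Sox9 and EpCAM-high CK19 stand at 9.60% and 9.62% as deposited and at 30.7% and 29.3% in their weakest quintile, while all lists lie between 2.32% and 3.80% in the strongest quintile.

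Far from genes, fewer peaks were strong. Among peaks 1 Mb or more from a gene, 12.7% reached a −log10 q of 5 in Tumor Sox9, 53.6% in Prog-like CK19, 40% in the Prog-like Sox9 list, 19.6% in EpCAM-high CK19 and 52.0% in the EpCAM-high Sox9 list. Inside genes the same shares were 80.0%, 93.2%, 93.1%, 84.9% and 83.7% in that order of lists. Peaks that far out were 21.2% of the desert peaks of Tumor Sox9 (805), 11.3% in Prog-like CK19 (274), 13.1% in the Prog-like Sox9 list (350), 13.6% in EpCAM-high CK19 (746) and 8.07% in the EpCAM-high Sox9 list (229).

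Desert peaks were narrower than the rest of their list in all 5 lists. The median width was 313 bp in deserts of Tumor Sox9 (quartiles 251 and 417), against 527 bp for the rest of that list. In Prog-like CK19 it was 400 bp against 524 bp, in the Prog-like Sox9 list 265 bp against 406 bp, in EpCAM-high CK19 281 bp against 461 bp, and in the EpCAM-high Sox9 list 270 bp against 353 bp. At equal list length Tumor Sox9, which is not cut, kept 313 bp in deserts against 527 bp elsewhere, and the gap was smaller in the other lists: 682 bp in deserts against 734 bp elsewhere in Prog-like CK19, 470 bp against 555 bp in the Prog-like Sox9 list, 531 bp against 567 bp in EpCAM-high CK19, and 394 bp against 462 bp in the EpCAM-high Sox9 list. As deposited, peaks between genes but nearer than 250 kb to one also had wider medians than desert peaks in every list. At equal list length their median was 428 bp in Tumor Sox9 and 644 bp in Prog-like CK19. It was 482 bp in the Prog-like Sox9 list, 482 bp in EpCAM-high CK19 and 389 bp in the EpCAM-high Sox9 list. Desert peaks were then wider than these peaks in Prog-like CK19 and both EpCAM-high lists. Width and −log10 q come from the same peak call, so the 2 measures are not independent.

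**Figure D2:**
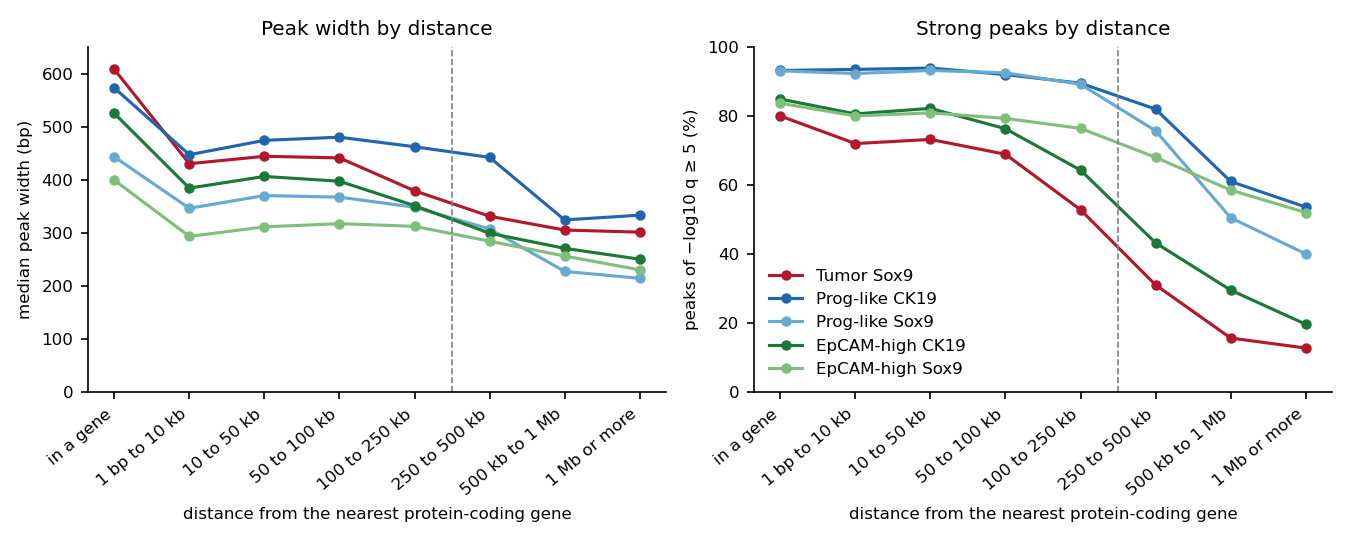
Median peak width in bp (left) and percentage of strong peaks, those at or above a −log10 q of 5 (right), by distance from the nearest protein-coding gene, 1 line per list, with the dashed line at 250 kb. Widths of Tumor Sox9 peaks are 608 bp in genes and 301 bp at 1 Mb or more, and 12.7% of its farthest peaks are strong, compared with 53.6% in Prog-like CK19.

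The strongest desert peaks were in part shared by all lists and in part held by 1 list or 1 kind of list. The highest −log10 q of Tumor Sox9, 716, belonged to a block at the start of the chromosome 9 assembly (chr9:3000106-3037867), before the first gene, which was 37762 bp wide and had counterparts in all 5 lists. Its part in the results was limited: leaving out peaks beyond the first or last gene of a chromosome moved none of the shares, widths and overlaps by more than their intervals or spread. Within the gene span, a peak beside Tenm4, a cell adhesion gene (chr7:95853297-95854091), led both EpCAM-high lists, with −log10 q of 448 in EpCAM-high CK19 and 283 in the EpCAM-high Sox9 list.

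Some leading peaks belonged to 1 list or 1 kind of list. In Tumor Sox9, a peak 1029 kb from Gpc5, a glypican gene (chr14:114062605-114063149), had a −log10 q of 125 and overlapped no peak of the other 4 lists. In EpCAM-high Sox9, a peak 619.6 kb from Slc39a10, a zinc transporter gene (chr1:47545341-47546141), had 197 and overlapped none either. In Prog-like CK19, a peak 373 kb from Kctd8 (chr5:68734892-68735972) had 381, with 238 in the Prog-like Sox9 list and no overlap in the other 3 lists. The peak between Pou3f2, a neural transcription factor gene, and Mms22l (chr4:23587271-23588132) had 335 in EpCAM-high CK19 and 82.9 in the EpCAM-high Sox9 list, with 5.83 in Prog-like CK19.

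At the 250 kb limit, the peaks just inside and just outside are given as single values. The Tumor Sox9 peak just inside lay 250056 bp from Epha5 and had a −log10 q of 2.03, and the one just outside lay 249987 bp from Inhba and had 33.7. In Prog-like CK19 the peak just inside lay 250100 bp from Kcnj2 with 55.6, and the one just outside 249986 bp from 1700017N19Rik with 45.3. In Prog-like Sox9 these were 250049 bp from 2610001J05Rik with 5.24 and 249932 bp from Fggy with 109. In EpCAM-high CK19 they were 250050 bp from Epha5 with 2.56 and 249941 bp from Nat1 with 2.68, and in the EpCAM-high Sox9 list 250081 bp from Inhba with 40.4 and 249946 bp from Gm44812 with 8.72.

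Desert peaks were less crowded than other peaks. A desert peak had another within 25 kb in 50.3% of cases in Tumor Sox9 (48.7 to 51.9), 62.8% in Prog-like CK19 (60.8 to 64.7), 57.3% in the Prog-like Sox9 list (55.4 to 59.2), 60.2% in EpCAM-high CK19 (58.9 to 61.5) and 59.7% in the EpCAM-high Sox9 list (57.8 to 61.5). For the rest of the same lists the shares were 74.9%, 90.7%, 90.0%, 80.6% and 85.0%. Clusters of 5 or more, joined at 25 kb, held 5.53% of the desert peaks of Tumor Sox9, 24.1% in Prog-like CK19, 21.4% in the Prog-like Sox9 list, 12.9% in EpCAM-high CK19 and 18.4% in the EpCAM-high Sox9 list. The Tumor Sox9 list thus had the most desert peaks relative to its length together with EpCAM-high CK19, but the fewest of them in large clusters.

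The largest clusters were found at recurring places. In Tumor Sox9, 14 peaks lay within 100.2 kb between Usp25 and Cxadr (chr16:77369845-77470000), where Prog-like CK19 had 8, Prog-like Sox9 7, EpCAM-high CK19 11 and EpCAM-high Sox9 14 peaks. In both Prog-like lists the leading clusters lay between Adgrl2 and Adgrl4, adhesion receptor genes, and between Enc1 and Arhgef28. The first had 17 peaks of Prog-like CK19 over 139.7 kb. Tumor Sox9 had 5 peaks there, Prog-like Sox9 19, EpCAM-high CK19 4 and EpCAM-high Sox9 3. The second had 16 peaks of Prog-like Sox9 over 96.8 kb. Tumor Sox9 had 1 peak there, Prog-like CK19 15, EpCAM-high CK19 6 and EpCAM-high Sox9 9. In EpCAM-high CK19, 14 peaks lay within 96.2 kb in the gap between Zeb2 and Acvr2a, where Tumor Sox9 had 5, Prog-like CK19 4, Prog-like Sox9 0 and EpCAM-high Sox9 15. The Gm5086 promoter printed above lies in the Enc1 to Arhgef28 cluster.

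Sharing between lists was lower in deserts than elsewhere in all 12 directions of the 6 pairs as deposited. A peak counted as shared when it overlapped a peak of the other list by 1 bp or more. Peaks elsewhere include those inside genes. Peaks between genes but nearer than 250 kb to one were also shared less than the rest of the list as a whole. They lay between desert peaks and the rest in all 12 directions. Of such Prog-like CK19 peaks 21.8% were found in EpCAM-high CK19, and of such Tumor Sox9 peaks 28.8% in the Prog-like Sox9 list. Between CK19 sets, 13.7% of Prog-like desert peaks were found in EpCAM-high CK19 (332 of 2432) and 6.07% of EpCAM-high desert peaks in Prog-like CK19 (332 of 5467), against 30.0% and 38.0% of all peaks of those lists. Between Sox9 sets, 9.04% of Prog-like desert peaks were found in the EpCAM-high Sox9 list and 8.60% in the other direction, against 30.0% and 35.0% of all peaks.

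The Tumor Sox9 list shared few desert peaks. Of its desert peaks 4.90% were found in the Prog-like Sox9 list (186 of 3796), against 41.4% of all its peaks, and 7.02% of Prog-like Sox9 desert peaks were found in Tumor Sox9, against 24.5% of all. With EpCAM-high Sox9, 13.1% of Tumor Sox9 desert peaks were shared (499), against 61.7% of all, and 18.5% of EpCAM-high Sox9 desert peaks (524), against 42.9% of all. Restricted to −log10 q of 5 or more, 42.3% of Tumor Sox9 desert peaks were found in the EpCAM-high Sox9 list and 10.8% in the Prog-like Sox9 list. For the rest of the Tumor Sox9 list at that strength the shares were 73.9% in the EpCAM-high Sox9 list and 51.7% in the Prog-like Sox9 list, so the same order held outside deserts.

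CK19 and Sox9 lists of the same name shared most. Of Prog-like CK19 desert peaks 63.7% were found in the Prog-like Sox9 list, against 81.8% of all, and 60.0% in the other direction, against 89.9% of all. Of EpCAM-high CK19 desert peaks 25% were found in the EpCAM-high Sox9 list, against 69.2% of all, and 49.9% in the other direction, against 68.5% of all. At equal length the Prog-like pair shared 88.9% of CK19 desert peaks against 88.8% of the rest, and 88.0% of Sox9 desert peaks against 90.8% of the rest. The EpCAM-high pair shared 57.9% of CK19 desert peaks against 76.7% of the rest, and 64.0% of Sox9 desert peaks against 77.8% of the rest.

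Peak strength moved with the loss of sharing, and the comparison was repeated within quintiles of each list by −log10 q. Desert peaks were shared less than other peaks of the same quintile in 57 of 60 comparisons and more in 2, and less in 11 of 12 comparisons in the strongest quintile. These other peaks include those inside genes, and peaks between genes were not set apart by quintile. The exceptions were Prog-like CK19 peaks found in the Prog-like Sox9 list, at 96.2% in deserts against 95.7% elsewhere in the middle quintile, 100% against 99.7% in the next and 100% in both in the strongest. In the strongest quintile, 75.7% of Tumor Sox9 desert peaks were found in the EpCAM-high Sox9 list, against 93.5% of the other peaks of that quintile. With Prog-like Sox9 the shares were 13.5% in deserts against 70.4% elsewhere.

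**Figure D3:**
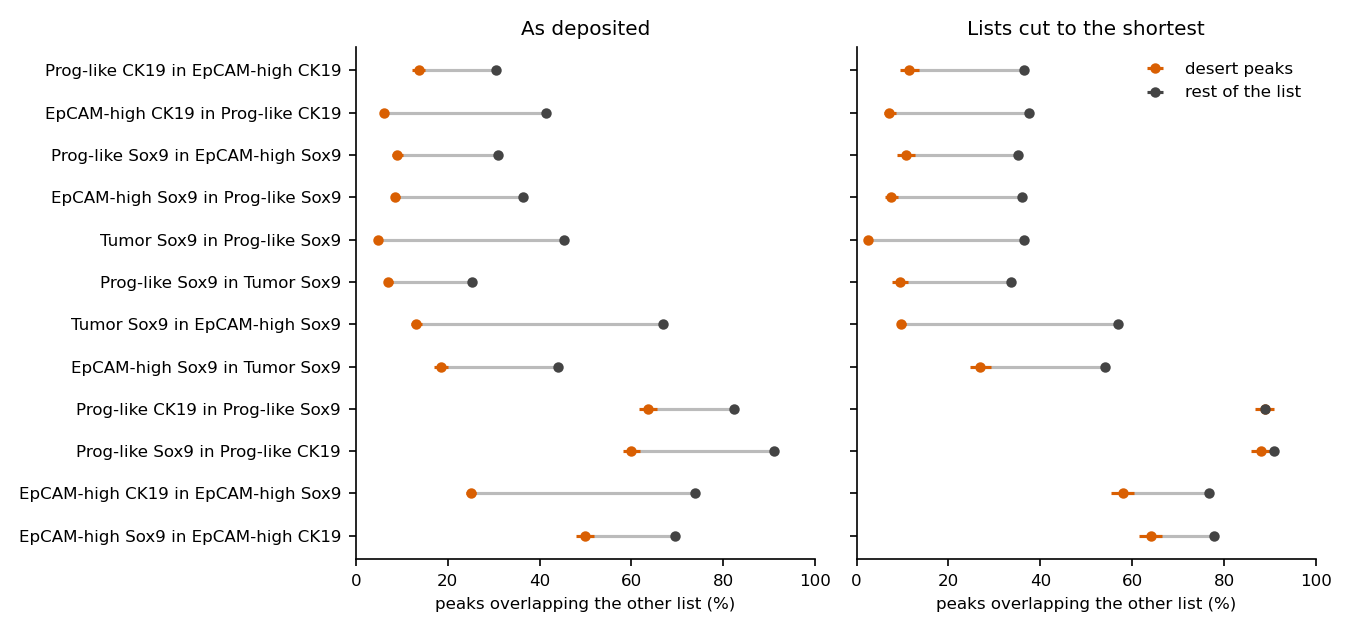
Percentage of desert peaks (orange) and of the rest of the list (dark grey) that overlap a peak of the other list by 1 bp or more, in both directions of 6 pairs, as deposited (left) and with lists cut to the length of the shortest (right), with exact 95% intervals. Desert peaks lie left of the rest in every row as deposited, while at equal length the Prog-like pair reaches 88.9% in deserts and 88.8% elsewhere.

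Many desert peaks were found in a single list. In Tumor Sox9, 78.7% of desert peaks overlapped no peak of another list (2986), against 29.6% of all its peaks. The shares were 29.8% in Prog-like CK19 against 13.7% of all, 34.5% in the Prog-like Sox9 list against 8.33%, 68.7% in EpCAM-high CK19 against 24.4%, and 41.9% in the EpCAM-high Sox9 list against 21.7%. Of these single-list desert peaks, 11.4% reached a −log10 q of 5 in Tumor Sox9, 32.5% in Prog-like CK19, 17.1% in the Prog-like Sox9 list, 16.3% in EpCAM-high CK19 and 41.2% in the EpCAM-high Sox9 list. Single-list peaks outside deserts reached it in 47.1%, 70.7%, 63.0%, 41.7% and 59.4% of cases, in the same order of lists.

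Overlapping desert peaks of the 5 lists merged into 12836 regions. Of these, 2986 were held by Tumor Sox9 alone, 3758 by EpCAM-high CK19 alone, 1238 by both Prog-like lists and no other, and 860 by both EpCAM-high lists and no other. A further 248 were held by Tumor Sox9 and both EpCAM-high lists. All 5 lists held 72 regions, 0.561% (0.439 to 0.706), against 10.7% (13417 of 125759) of regions elsewhere, which include regions inside genes. The 72 regions lay in 54 gaps and had a median width of 919.5 bp. The farthest from a gene lay 1467 kb from Slc10a2, a bile acid transporter gene (chr8:6571874-6572546), with −log10 q of 7.89 in Tumor Sox9, 59.1 in Prog-like CK19, 42.2 in the Prog-like Sox9 list, 76.5 in EpCAM-high CK19 and 27.1 in the EpCAM-high Sox9 list. The next lay 1355 kb from Pcdh20, a protocadherin gene (chr14:89826489-89827211), and 1325 kb from Zeb2 (chr2:46442645-46444187).

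Single gaps differed between lists, and many of those named below were picked because their counts differed most at equal length. Klf4 encodes a zinc finger transcription factor of epithelial differentiation that is also used in monocytes. The gap between Klf4 and Actl7b (chr4:55532476-56740004) held 1 desert peak in Tumor Sox9, 32 in Prog-like CK19, 34 in the Prog-like Sox9 list, 4 in EpCAM-high CK19 and 7 in the EpCAM-high Sox9 list. The Prog-like lists were thus high and the other 3 low. Cut to equal length, the lists held 1, 24, 26, 2 and 3 in that order of lists. Of the 32 Prog-like CK19 peaks, 28 overlapped a Prog-like Sox9 peak, 1 an EpCAM-high CK19 peak and 2 an EpCAM-high Sox9 peak. Among all Prog-like CK19 peaks, 81.8% overlapped Prog-like Sox9 and 30.0% EpCAM-high CK19, and among its desert peaks 63.7% and 13.7%. This gap was among those picked for differing most, so its low overlap with the EpCAM-high lists follows in part from the choice. The 32 peaks lay 264.9 to 729.5 kb from Klf4, with −log10 q from 5.02 to 222 and a median of 48.7.

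Sox9 encodes a transcription factor of bile duct and progenitor cells, and its name is also carried by 3 of the lists. The gap between Gm11677 and Sox9 (chr11:111726302-112782209) held 1 desert peak in Tumor Sox9, 0 in Prog-like CK19, 0 in the Prog-like Sox9 list, 15 in EpCAM-high CK19 and 11 in the EpCAM-high Sox9 list, and 1, 0, 0, 9 and 6 at equal length. The EpCAM-high lists were high and the other 3 at or near 0. Of the 15 EpCAM-high CK19 peaks, 7 overlapped an EpCAM-high Sox9 peak. Among all EpCAM-high CK19 peaks 69.2% did, and among its desert peaks 25%. The 15 peaks lay 316.4 to 778.4 kb from Sox9, and the strongest (chr11:112081070-112081830) had a −log10 q of 100 in EpCAM-high CK19. Its counterpart in the EpCAM-high Sox9 list had 50.5. The Tumor Sox9 peak lay 562.4 kb from the gene and overlapped none of the others. On the far side of Gm11677, a predicted gene, the gap to Kcnj2 held 0, 3, 3, 3 and 1 desert peaks in the same order of lists.

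**Figure D4:**
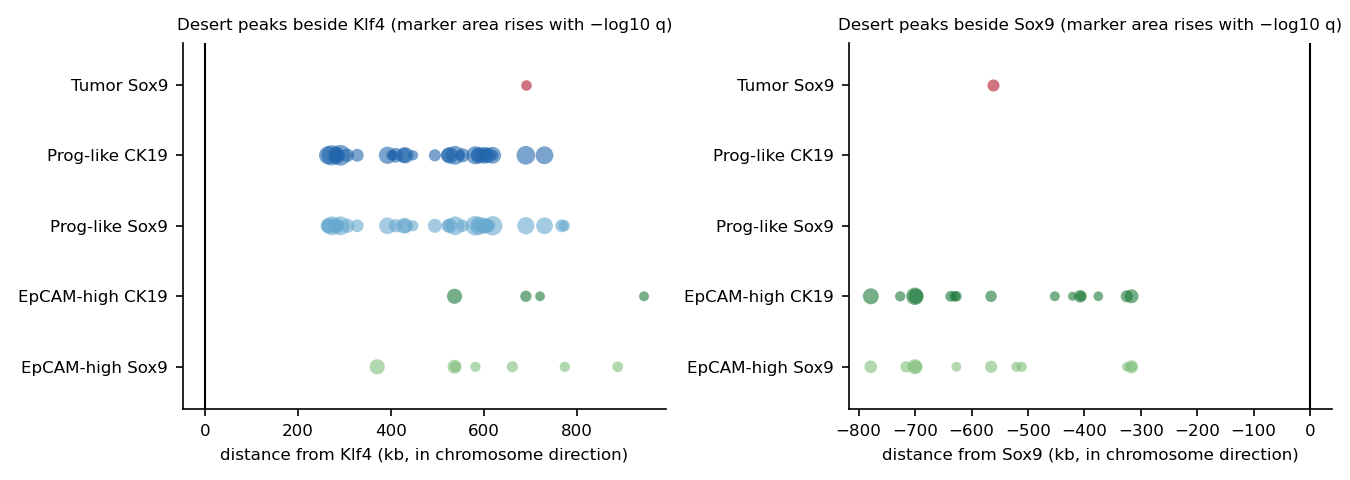
Desert peaks beside Klf4 (left) and Sox9 (right) by distance from the gene in kb, 1 row per list, with marker area rising with −log10 q; peaks within 250 kb of any protein-coding gene are not drawn. Beside Klf4 the Prog-like lists have 32 and 34 peaks, and beside Sox9 both Prog-like lists have 0, EpCAM-high CK19 15 and EpCAM-high Sox9 11.

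Other gaps were open mainly in the Prog-like lists. The gap between Dhx35, a helicase gene, and Gm826 (chr2:158858221-160311392) held 0 desert peaks in Tumor Sox9, 27 in each Prog-like list, 10 in EpCAM-high CK19 and 2 in the EpCAM-high Sox9 list. The gap between Plpp3, a lipid phosphatase gene, and Usp24 (chr4:105232768-106315979) held 3 in Tumor Sox9, 24 in each Prog-like list, 0 in EpCAM-high CK19 and 5 in the EpCAM-high Sox9 list. Median −log10 q of the Prog-like peaks there was 22.2 in Prog-like CK19 and 26.7 in the Prog-like Sox9 list. The gap between Megf9 and Gm11232 held 2, 22, 19, 23 and 6 peaks in the order Tumor Sox9, Prog-like CK19, Prog-like Sox9, EpCAM-high CK19 and EpCAM-high Sox9, so it separated Tumor Sox9 from the Prog-like lists but not the CK19 sets.

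A second group of gaps was open in the EpCAM-high lists. The gap between Klhl29 and Apob (chr12:5375683-7977628), where Apob encodes the main structural protein of liver lipoproteins, held 3 desert peaks in Tumor Sox9, 2 in each Prog-like list, 37 in EpCAM-high CK19 and 26 in the EpCAM-high Sox9 list. The gap between Lcorl and Slit2, an axon and cell guidance gene (chr5:45857836-47981290), held 18 in Tumor Sox9, 6 in Prog-like CK19, 4 in the Prog-like Sox9 list, 51 in EpCAM-high CK19 and 33 in the EpCAM-high Sox9 list. Between Gm44812 and Mctp2 (chr7:70584962-72077826) there were 10, 6, 3, 34 and 35 peaks, and between Adamts5, a matrix protease gene, and N6amt1 (chr16:85901126-87354184) 19, 10, 4, 42 and 36, in the same order. In the last 3 of these 4 gaps Tumor Sox9 lay between the Prog-like and the EpCAM-high lists, also at −log10 q of 5 or more, with 10, 9 and 14 peaks there.

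Myc, a growth-promoting transcription factor gene, has a desert on both sides. Upstream in the chromosome's direction, the gap between A1bg and Myc (chr15:60921271-61985340) held 0 desert peaks in Tumor Sox9, 3 in Prog-like CK19, 4 in the Prog-like Sox9 list, 17 in EpCAM-high CK19 and 17 in the EpCAM-high Sox9 list. On the other side, the gap between Myc and Gsdmc (chr15:61990362-63775970) held 27, 26, 23, 34 and 38 in that order, and 27, 11, 11, 29 and 25 at equal length. Of the 27 Tumor Sox9 peaks beside Myc, 17 overlapped an EpCAM-high Sox9 peak and 1 a Prog-like Sox9 peak. Among all Tumor Sox9 peaks, 61.7% overlapped EpCAM-high Sox9 and 41.4% Prog-like Sox9, and among its desert peaks 13.1% and 4.90%. Of the 29 Prog-like CK19 peaks beside Myc, 6 overlapped an EpCAM-high CK19 peak, where 30.0% of all peaks of the list and 13.7% of its desert peaks did.

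Zeb2, a transcription factor gene of myeloid cells and of epithelial to mesenchymal change, and Cited2, a transcriptional co-regulator gene, border deserts rich in peaks in every list. The gap between Zeb2 and Acvr2a (chr2:45117443-48814108) held 36 desert peaks in Tumor Sox9, 58 in Prog-like CK19, 51 in the Prog-like Sox9 list, 58 in EpCAM-high CK19 and 42 in the EpCAM-high Sox9 list. Of the 58 Prog-like CK19 peaks there, 44 overlapped a Prog-like Sox9 peak and 8 an EpCAM-high CK19 peak. Among all Prog-like CK19 peaks, 81.8% overlapped Prog-like Sox9 and 30.0% EpCAM-high CK19, and among its desert peaks 63.7% and 13.7%. Each list's own desert peaks in this gap had a median −log10 q of 20.4 in Prog-like CK19 and 24.2 in the Prog-like Sox9 list. It was 3.84 in EpCAM-high CK19, 13.5 in the EpCAM-high Sox9 list and 3.88 in Tumor Sox9. Over all desert peaks of these lists the medians were 16.4, 10.4, 3.61, 7.79 and 2.94, in the order just given. The gap between Nmbr and Cited2 (chr10:14771459-17723227) held 28, 54, 63, 67 and 61, and the gap between Slc10a2 and Efnb2 (chr8:5105288-8617234) 18, 42, 37, 50 and 44, in the order Tumor Sox9, Prog-like CK19, Prog-like Sox9, EpCAM-high CK19 and EpCAM-high Sox9.

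The gaps where Tumor Sox9 led were among the longest, and its peaks there were weak. The gap between the protocadherin genes Pcdh20 and Pcdh9 (chr14:88471397-93013699), the longest at 4542 kb, held 80 desert peaks in Tumor Sox9, 13 in Prog-like CK19, 20 in the Prog-like Sox9 list, 34 in EpCAM-high CK19 and 9 in the EpCAM-high Sox9 list. The gap between Slitrk5 and Gpc5 held 64, 6, 19, 19 and 14 in that order, that between Ncam2 and Mrpl39 58, 10, 11, 51 and 16, and that between Brinp3 and Pla2g4a 56, 16, 21, 18 and 3. Median −log10 q of the Tumor Sox9 peaks in these 4 gaps ran from 2.75 to 3.32. At −log10 q of 5 or more, the Tumor Sox9 list kept 19, 14, 4 and 8 peaks in them, against 6, 1, 3 and 13 in the Prog-like Sox9 list and 3, 9, 5 and 0 in the EpCAM-high Sox9 list. Among these strong peaks Tumor Sox9 had fewer than Prog-like Sox9 between Brinp3 and Pla2g4a, and fewer than EpCAM-high Sox9 between Ncam2 and Mrpl39.

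Within the EpCAM-high fraction, the sets also differed at single gaps. Between Fat3, a cadherin gene, and Chordc1 (chr9:16502682-18292266), EpCAM-high CK19 had 30 desert peaks and EpCAM-high Sox9 0, and 19 against 0 at −log10 q of 5 or more. Between Pou3f2 and Mms22l (chr4:22488367-24496450) the counts were 36 in EpCAM-high CK19 and 12 in the EpCAM-high Sox9 list. Between Celf4 and Pik3c3 they were 67 and 41, and in Prog-like CK19 37 against 36 in the Prog-like Sox9 list. In the other direction, the gap between Pcdh17 and Diaph3 held 15 desert peaks in EpCAM-high CK19 and 20 in the EpCAM-high Sox9 list, with 1 and 12 at equal length. Between Jag1, a Notch ligand gene, and Btbd3 there were 29 in EpCAM-high CK19 and 31 in the EpCAM-high Sox9 list, with 17 and 26 at equal length. Between the Prog-like sets the gap from Slitrk5 to Gpc5 held 6 desert peaks in Prog-like CK19 and 19 in the Prog-like Sox9 list, with 1 in each at −log10 q of 5 or more. Between Cdh6 and Cdh9, genes of cadherins, there were 17 in Prog-like CK19 and 27 in the Prog-like Sox9 list, with 10 in each at that strength.

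**Figure D5:**
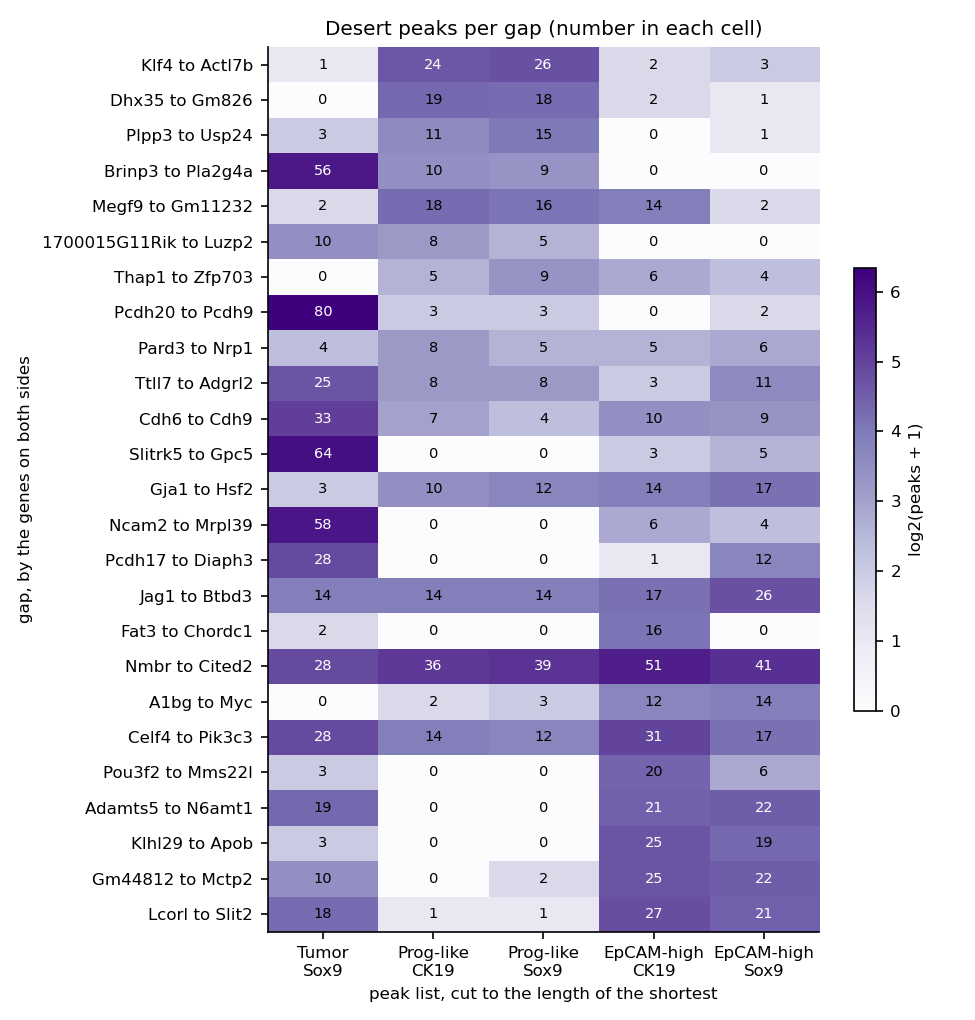
Number of desert peaks in each gap named for a difference between 2 lists, with lists cut to the length of the shortest; rows are gaps, columns the 5 lists, and shade is log2(peaks + 1). The rows at the top hold more peaks in the Prog-like lists (24 and 26 beside Klf4) and those at the bottom more in the EpCAM-high lists (27 and 21 between Lcorl and Slit2).

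The genes beside deserts were also read by lists of known regulators, chosen with earlier results of these data known. A gene counted as having desert peaks if a gap beside it held at least 1. Of all 1163 genes beside a gap over 500 kb, 61.4% had one in Tumor Sox9, 60.8% in Prog-like CK19, 63.0% in the Prog-like Sox9 list, 75.3% in EpCAM-high CK19 and 68.5% in the EpCAM-high Sox9 list, with medians of 2.0, 1.0, 2.0, 4 and 2.0 peaks per gene. Of 10 biliary and epithelial regulators beside such gaps, 8 had one in Tumor Sox9, 6 in each Prog-like list and 9 in each EpCAM-high list, with medians of 1.5, 1.0, 1.0, 4 and 6.5 peaks. Beside Foxa2, a liver and gut pioneer factor gene, there was 1 peak in Tumor Sox9 and in each Prog-like list, 5 in EpCAM-high CK19 and 7 in the EpCAM-high Sox9 list. Beside Sox4, an epithelial progenitor factor gene, there were 10, 17, 16, 20 and 19, in the same order of lists. Beside Hnf4g, a nuclear receptor gene of gut and other epithelia, there were 7, 12, 16, 13 and 8 peaks, with 7, 0, 0, 0 and 0 at equal length, where Tumor Sox9 is not cut. At −log10 q of 5 or more these were 0, 1, 2, 2 and 0.

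Of 9 macrophage and blood regulators beside such gaps, 8 had desert peaks in each of the 5 lists, with medians of 4.0 in Tumor Sox9, 8.0 in Prog-like CK19, 5.0 in the Prog-like Sox9 list, 6 in EpCAM-high CK19 and 7.0 in the EpCAM-high Sox9 list. That is 88.9% in each list, against 60.8% to 75.3% of all 1163 genes beside such gaps. Beside Mef2c, a factor of myeloid, muscle and endothelial cells, there were 12 peaks in Tumor Sox9, 23 in Prog-like CK19, 27 in the Prog-like Sox9 list, 22 in EpCAM-high CK19 and 6 in the EpCAM-high Sox9 list, of which 1, 22, 23, 5 and 5 reached a −log10 q of 5. Beside Cd83, an immune cell surface gene, there were 9, 14, 12, 6 and 8 peaks, and beside Id2, a factor of lymphoid and myeloid cells, 4, 9, 10, 5 and 7. Other members of the list had more in the EpCAM-high lists: beside Tfec, a factor of macrophages, there were 4, 1, 1, 14 and 9 peaks, and beside Maf, a factor of macrophages and lymphocytes, 2, 3, 3, 9 and 11. Beside Ptprc, the gene of the leukocyte antigen CD45, there were 2, 3, 2, 6 and 6, in the gap it shares with Nr5a2, a liver and bile acid regulator. Genes named here share gaps with genes on the other side, and no peak was tied to its target.

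Of 30 developmental regulators beside such gaps, 11 had desert peaks in Tumor Sox9, 12 in each Prog-like list, 19 in EpCAM-high CK19 and 22 in the EpCAM-high Sox9 list. These were 36.7%, 40%, 40%, 63.3% and 73.3%, in the order Tumor Sox9, Prog-like CK19, Prog-like Sox9, EpCAM-high CK19 and EpCAM-high Sox9. Of all 1163 genes beside such gaps the shares were 61.4%, 60.8%, 63.0%, 75.3% and 68.5%. The developmental regulators thus lay lower in every list but EpCAM-high Sox9. Beside Sox11, a fetal progenitor factor gene, there were 6 in Tumor Sox9, 1 in Prog-like CK19, 0 in the Prog-like Sox9 list, 17 in EpCAM-high CK19 and 15 in the EpCAM-high Sox9 list. Beside Zic1, a neural factor gene, there were 0, 0, 0, 22 and 8, of which 5 in EpCAM-high CK19 and 4 in the EpCAM-high Sox9 list reached a −log10 q of 5. Of 9 growth and cell cycle genes, 4 had desert peaks in Tumor Sox9, 5 in each Prog-like list, 4 in EpCAM-high CK19 and 6 in the EpCAM-high Sox9 list. Their shares were 44.4%, 55.6%, 55.6%, 44.4% and 66.7%, below those of all such genes in every list. Beside Klf6, a zinc finger factor gene, there were 2, 18, 21, 23 and 26 peaks, which left Tumor Sox9 low. Of 4 mesenchymal and endothelial regulators, 2 had desert peaks in Tumor Sox9, 4 in Prog-like CK19, 3 in the Prog-like Sox9 list and 4 in each EpCAM-high list. These were 50%, 100%, 75%, 100% and 100%, of only 4 genes. Beside Nr2f1, a nuclear receptor gene, there were 25, 10, 21, 55 and 11 peaks, in the same order of lists. Of these, 3, 4, 4, 11 and 2 reached a −log10 q of 5. Beside Nr2f2, also a nuclear receptor gene, there were 6, 10, 8, 32 and 11, of which 1, 9, 7, 18 and 9 reached it. No gap over 500 kb lies beside Krt19, Epcam or Thy1, so these genes had no desert peaks by position.

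By chromosome, Tumor Sox9 held 17.7 desert peaks per Mb of desert on chromosome 16, where EpCAM-high CK19 held 19, and 13.5 on chromosome 14, where the other lists held 3.75 to 8.84. It held 3.13 on chromosome 4 and 2.62 on X. On chromosome 4 the other lists held 7.34 per Mb in Prog-like CK19, 7.63 in the Prog-like Sox9 list, 9.32 in EpCAM-high CK19 and 4.46 in the EpCAM-high Sox9 list. Away from deserts, chromosome 4 carried 5.23% of the remaining Tumor Sox9 peaks, against 6.17% in Prog-like CK19, 5.99% in the Prog-like Sox9 list, 6.08% in EpCAM-high CK19 and 6.07% in the EpCAM-high Sox9 list. The X chromosome was low in every list, at 1.98 per Mb in Prog-like CK19, 1.47 in the Prog-like Sox9 list, 4.70 in EpCAM-high CK19 and 2.40 in the EpCAM-high Sox9 list. Both Prog-like lists were densest on chromosome 13, with 11 per Mb in Prog-like CK19 and 13.2 in the Prog-like Sox9 list.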

How the data were processed

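Cells were YFP-positive liver cells, and 8 ATAC-seq samples are labelled. Per the submitters' processing notes, Bowtie 1.1.2, MACS2, HOMER, deepTools and the build mm10 were used, with no role or order given. Peak calling per library or on pooled libraries, read shifting and duplicate removal are not stated in the labels or notes. The deposited lists follow the narrowPeak layout, with a fold enrichment (a linear ratio), −log10 p, −log10 q and an integer score; all are the authors' values, used only to describe, rank or filter peaks within a list. The lowest deposited −log10 q was 1.30 to 1.32, a q of 0.05. The lists held 39644 (Tumor Sox9), 71375 (Prog-like CK19), 67855 (Prog-like Sox9), 56932 (EpCAM-high CK19) and 59454 (EpCAM-high Sox9) peaks, of which 78 to 122 per list lay on other contigs or Y and were not used. The read depth behind each list is unknown, and its effect on the number of peaks was not tested.

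Positions were taken from the lists and genes from RefSeq's GRCm38.p6 table, which gives no strand or exons. Promoter windows came from RefSeq, and 525 of 525 overlapping windows of opposite strands were reverse complements. Clusters were joined at 25 kb and equal length meant the 39644 peaks of highest −log10 p. Calculations used Python 3.11.15, numpy 2.4.6, pandas 2.3.3, scipy 1.17.1 and matplotlib 3.10.9, and the distance, cluster and overlap steps were tested on simulated data. Alternatives were equal length, −log10 q of 5 or more, other distances, all annotated genes as borders, autosomes alone, collapsed duplicates, other linkage, 50% overlap, quintiles of strength and, added after seeing the data, leaving out chromosome ends.

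The members and the 5 lists of 144 flanking genes were chosen with earlier results of these data known. Gaps were named by rule: the 3 richest per list, the 3 per direction of each of 6 pairs that differed most at equal length, gaps of the 2 largest clusters and 2 strongest peaks per list, the 3 farthest regions held by all lists, up to 4 genes per flanking list, and Sox9, Krt19, Epcam, Thy1 and Myc whatever their values. Beyond the rule, the Kcnj2 gap, the promoters, Foxa2, Ptprc, Tfec, Maf, Sox11 and Zic1 were named after their values were seen. Some items that the rule would have named are not reported here.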

Additional observations from a re-analysis of the deposited data

Results flagged for a closer look

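As deposited, the measures below ran in opposite directions in comparable pairs of lists. The difference was not tested in any of them, since each condition has 1 list. The desert share was lower by 0.541 percentage points in Prog-like CK19 than in Prog-like Sox9 (a difference of -0.541), and 4.84 points higher in EpCAM-high CK19 than in EpCAM-high Sox9. The median width of desert peaks was 119 bp larger in Prog-like CK19 than in EpCAM-high CK19, whereas Prog-like Sox9 minus EpCAM-high Sox9 came to -5 bp. The share of desert peaks with a neighbour within 25 kb was 2.57 points higher in Prog-like CK19 than in EpCAM-high CK19, whereas Prog-like Sox9 minus EpCAM-high Sox9 came to -2.34 points. At equal list length, width and this share were higher in the Prog-like list of each set. Widths were 682 against 531 bp in the CK19 sets and 470 against 394 bp in the Sox9 sets. Neighbour shares were 62.9% against 62.0% and 63.4% against 57.0%. At −log10 q of 5 or more, widths were 506 against 481 bp and 369 against 352 bp. Neighbour shares there were 71.6% against 60.2% and 70.3% against 61.2%.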

How the results depend on the processing

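The values below are those of desert peaks that moved beyond their interval or spread. At equal list length, the desert share was 2.46% in Prog-like CK19, 2.53% in the Prog-like Sox9 list, 3.90% in EpCAM-high CK19, 3.57% in the EpCAM-high Sox9 list. The median width was 682 bp in Prog-like CK19, 470 bp in the Prog-like Sox9 list, 531 bp in EpCAM-high CK19, 394 bp in the EpCAM-high Sox9 list. The clustered share was 63.4% in the Prog-like Sox9 list, 62.0% in EpCAM-high CK19, 57.0% in the EpCAM-high Sox9 list. The desert peaks shared were 2.45% of Tumor Sox9 in the Prog-like Sox9 list and 9.37% in reverse, 9.77% of Tumor Sox9 in the EpCAM-high Sox9 list and 26.9% in reverse, 11.4% of Prog-like CK19 in EpCAM-high CK19 and 7.13% in reverse. They were 10.7% of Prog-like Sox9 in the EpCAM-high Sox9 list and 7.49% in reverse, 88.9% of Prog-like CK19 in the Prog-like Sox9 list and 88.0% in reverse, 57.9% of EpCAM-high CK19 in the EpCAM-high Sox9 list and 64.0% in reverse for the other pairs. Regions held by all 5 lists were 0.744%. At −log10 q of 5 or more, the desert share was 2.89% in Tumor Sox9, 2.69% in Prog-like CK19, 2.74% in the Prog-like Sox9 list, 4.37% in EpCAM-high CK19, 3.76% in the EpCAM-high Sox9 list. The median width was 476 bp in Tumor Sox9, 506 bp in Prog-like CK19, 369 bp in the Prog-like Sox9 list, 481 bp in EpCAM-high CK19, 352 bp in the EpCAM-high Sox9 list. The clustered share was 39.4% in Tumor Sox9, 71.6% in Prog-like CK19, 70.3% in the Prog-like Sox9 list. The desert peaks shared were 10.8% of Tumor Sox9 in the Prog-like Sox9 list and 5.23% in reverse, 42.3% of Tumor Sox9 in the EpCAM-high Sox9 list, 11.3% of Prog-like CK19 in EpCAM-high CK19 and 10.5% in reverse. They were 10.4% of Prog-like Sox9 in the EpCAM-high Sox9 list and 9.75% in reverse, 80.6% of Prog-like CK19 in the Prog-like Sox9 list and 86.8% in reverse, 55.9% of EpCAM-high CK19 in the EpCAM-high Sox9 list and 60.6% in reverse for the other pairs. Regions held by all 5 lists were 1.16%. With a limit of 100 kb, the desert share was 15.3% in Tumor Sox9, 8.66% in Prog-like CK19, 9.30% in the Prog-like Sox9 list, 17.0% in EpCAM-high CK19, 11.3% in the EpCAM-high Sox9 list. The median width was 333 bp in Tumor Sox9, 441 bp in Prog-like CK19, 314 bp in the Prog-like Sox9 list, 308 bp in EpCAM-high CK19, 294 bp in the EpCAM-high Sox9 list. The clustered share was 52.9% in Tumor Sox9, 73.9% in Prog-like CK19, 71.2% in the Prog-like Sox9 list, 64.5% in EpCAM-high CK19, 69.1% in the EpCAM-high Sox9 list. The desert peaks shared were 7.92% of Tumor Sox9 in the Prog-like Sox9 list, 23.5% of Tumor Sox9 in the EpCAM-high Sox9 list and 22.1% in reverse, 15.1% of Prog-like CK19 in EpCAM-high CK19 and 9.65% in reverse. They were 12.4% of Prog-like Sox9 in the EpCAM-high Sox9 list and 11.8% in reverse, 72.5% of Prog-like CK19 in the Prog-like Sox9 list and 73.9% in reverse, 37.0% of EpCAM-high CK19 in the EpCAM-high Sox9 list and 55.3% in reverse for the other pairs. Regions held by all 5 lists were 1.07%. With a limit of 500 kb, the desert share was 5.64% in Tumor Sox9, 1.34% in Prog-like CK19, 1.69% in the Prog-like Sox9 list, 4.71% in EpCAM-high CK19, 1.74% in the EpCAM-high Sox9 list. The median width was 303 bp in Tumor Sox9, 330 bp in Prog-like CK19, 222 bp in the Prog-like Sox9 list, 261 bp in EpCAM-high CK19, 252 bp in the EpCAM-high Sox9 list. The clustered share was 51.6% in Prog-like CK19, 45.8% in the Prog-like Sox9 list, 57.3% in EpCAM-high CK19, 53.7% in the EpCAM-high Sox9 list. The desert peaks shared were 3.41% of Tumor Sox9 in the Prog-like Sox9 list, 6.64% of Tumor Sox9 in the EpCAM-high Sox9 list and 14.9% in reverse, 11.5% of Prog-like CK19 in EpCAM-high CK19 and 4.14% in reverse. They were 5.24% of Prog-like Sox9 in the EpCAM-high Sox9 list and 5.92% in reverse, 50.1% of Prog-like CK19 in the Prog-like Sox9 list and 43.8% in reverse, 16.8% of EpCAM-high CK19 in the EpCAM-high Sox9 list and 45.3% in reverse for the other pairs. Regions held by all 5 lists were 0.244%. With all annotated genes as borders, the desert share was 0.918% in Tumor Sox9, 0.153% in Prog-like CK19, 0.241% in the Prog-like Sox9 list, 0.730% in EpCAM-high CK19, 0.263% in the EpCAM-high Sox9 list. The median width was 295 bp in Tumor Sox9, 312 bp in Prog-like CK19, 197 bp in the Prog-like Sox9 list, 260 bp in EpCAM-high CK19, 220.5 bp in the EpCAM-high Sox9 list. The clustered share was 35.8% in Prog-like CK19, 32.5% in the Prog-like Sox9 list, 54.0% in EpCAM-high CK19, 44.2% in the EpCAM-high Sox9 list. The desert peaks shared were 3.03% of Tumor Sox9 in the Prog-like Sox9 list, 6.06% of Tumor Sox9 in the EpCAM-high Sox9 list and 15.4% in reverse, 3.37% of EpCAM-high CK19 in Prog-like CK19. They were 3.07% of Prog-like Sox9 in the EpCAM-high Sox9 list and 3.21% in reverse, 42.2% of Prog-like CK19 in the Prog-like Sox9 list and 30.1% in reverse, 13.3% of EpCAM-high CK19 in the EpCAM-high Sox9 list and 35.9% in reverse for the other pairs. Regions held by all 5 lists were 0.293%. With linkage at 10 kb, the clustered share was 24.2% in Tumor Sox9, 44.9% in Prog-like CK19, 41.8% in the Prog-like Sox9 list, 34.1% in EpCAM-high CK19, 41.0% in the EpCAM-high Sox9 list. With linkage at 50 kb, the clustered share was 70.9% in Tumor Sox9, 71.6% in Prog-like CK19, 68.3% in the Prog-like Sox9 list, 78.7% in EpCAM-high CK19, 71.1% in the EpCAM-high Sox9 list. In the strongest quintile, the desert peaks shared were 13.5% of Tumor Sox9 in the Prog-like Sox9 list and 12.7% in reverse, 75.7% of Tumor Sox9 in the EpCAM-high Sox9 list and 37.1% in reverse, 17.0% of Prog-like CK19 in EpCAM-high CK19 and 24.8% in reverse. They were 17.6% of Prog-like Sox9 in the EpCAM-high Sox9 list and 15.0% in reverse, 100% of Prog-like CK19 in the Prog-like Sox9 list and 99.7% in reverse, 95.6% of EpCAM-high CK19 in the EpCAM-high Sox9 list and 93.2% in reverse for the other pairs. With autosomes alone, identical peaks collapsed or, added after seeing the data, peaks beyond the first or last gene of a chromosome left out, all 28 values stayed within their interval or spread, and so did the 12 overlaps at 50% of either peak. Of 36 differences between lists at single gaps, 3 reversed at equal length and 2 at −log10 q of 5 or more. Prog-like CK19 minus Prog-like Sox9 was -2 peaks between Pard3 and Nrp1 as deposited and 3 at equal length, and -10 and 3 between Cdh6 and Cdh9. Prog-like Sox9 minus Prog-like CK19 was 1 between Thap1 and Zfp703 as deposited and -1 at −log10 q of 5 or more. EpCAM-high Sox9 minus EpCAM-high CK19 was -4 between Ttll7 and Adgrl2 as deposited, 8 at equal length and 10 at −log10 q of 5 or more. The cause was not tested. No paired analysis was possible because each condition has 1 list. The read depth is unknown and its part in the weak peaks was not tested, and no replicate spread stands behind any difference.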
